A study of Mus musculus with 2 samples.

Results

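Gpnmb/Fabp5 macrophages were the thalamic CD45+ cells that combined a macrophage profile with high counts of Gpnmb, a lysosomal glycoprotein, and Fabp5, an intracellular fatty acid carrier. A cell belonged to them when it had at least 10 unique molecular identifiers (UMIs, 1 per captured mRNA molecule) of Gpnmb and Fabp5 together, at least 5 of the complement genes C1qa, C1qb and C1qc, and at least 3 of the myeloid genes Lyz2 and Ms4a7. It could hold no more than 2 UMIs of a set of inflammatory macrophage genes that includes Nos2 and Slc7a2, no more than 1 of the microglial genes P2ry12, Siglech and Gpr34, and none of the T cell genes Cd3d, Cd3e and Cd3g. This rule found 334 cells among 26145 cells kept by the quality limits (of 27418 barcodes), 138 in the control library and 196 in the anti-CD9 library. The rule read measured counts, so the levels of its own genes are given as a description.

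Both libraries, called control and anti-CD9, came from the thalamus of C57B6/J mice, 12 weeks old, after cortical ablation injury (CAI), a surgical removal of cortical tissue. One library was made from mice given anti-CD9 Ab, a blocking antibody against the tetraspanin CD9, and one from mice given control Ab (normal rat IgG). Both antibodies were injected into the thalamus at 1.0 μg/μl through cannulas from day 7 to day 19, and CD45+ cells were sorted on day 21 for single-cell RNA sequencing (scRNA-seq). The methods describe cells of 4 mice pooled per thalamic library without repeating that number for the antibody groups. With 1 library per antibody, no test between antibodies was possible, and an effect of the antibody cannot be told apart from a difference between pools of mice or libraries. Intervals are 95% intervals that cover counting error only. Those given for list medians are built from the intervals of single genes and are not 95% intervals of the median. The control library held 38042608 UMIs and the anti-CD9 library 40825201, and the Gpnmb/Fabp5 macrophages had a median of 5935 and 5560.5 UMIs per cell, respectively.

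Macrophages that clear dying cells and myelin take up large amounts of lipid. Lipid is bound by scavenger and lipoprotein receptors, broken down by acid hydrolases in the lysosome, carried by fatty acid binding proteins, stored in droplets coated by perilipins, and exported as sterol through Abca1 and Abcg1 onto Apoe. Gpnmb, Spp1 (osteopontin), Cd63 and Fabp5 are known to be high in such lipid-laden cells of injured brain, of atherosclerotic plaque and of fat tissue.

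The cells carried general macrophage genes that the rule did not read. Each share was set beside that of T cells of the same library, which should lack these genes, after every cell was thinned to 3000 UMIs (131 of 138 and 177 of 196 cells were deep enough, and 450 of 4906 and 926 of 2837 T cells, whose medians before thinning were 1634.5 and 2351 UMIs). Cd68 had a UMI in 90.8% of thinned cells in control and 79.7% in anti-CD9 (97.1% and 89.3% unthinned), against 4.44% and 3.56% of T cells. Csf1r, the receptor that macrophages need for survival, had one in 37.4% and 66.1% (58.7% and 81.1% unthinned), against 4.22% and 4.75% of T cells. Adgre1 (F4/80) had one in 42.0% and 64.4% (65.2% and 78.6% unthinned), against 0.444% and 4.32% of T cells. The 3 genes were thus above the free-RNA background in both libraries. The list of 10 microglial markers, which holds P2ry12, Siglech and Gpr34 and so is kept low in part by the rule, summed to 880 CPM in the control library (CPM is the share of a gene in all UMIs summed over a group of cells of 1 library, scaled so that 10000 CPM are 1%) and 712 CPM in anti-CD9, against 7702 and 4892 CPM in Cst7/Lpl microglia (226 and 35 cells). Fcrls was the most abundant of these markers in control and Cx3cr1, which monocyte-derived cells also express, in anti-CD9. Tmem119 stood at 6.10 CPM in control and 60.1 CPM in anti-CD9, and Sparc went the other way, at 165 and 45.1 CPM. Of the microglial genes that the rule did not read, a UMI of Tmem119, Sparc or Fcrls was present in 43.5% of thinned cells in control and 35.0% in anti-CD9 (56.5% and 46.4% unthinned). T cells had one in 9.78% and 3.02%, and Cst7/Lpl microglia in 136 of 137 and 26 of 27 thinned cells. A single such UMI can therefore come from free RNA, more often in control. The shares in the Gpnmb/Fabp5 macrophages were still above those of T cells in both libraries. Fcrls by itself had a UMI in 38.9% and 24.3% of the thinned macrophages, against 4.67% and 0.864% of T cells. The share of microglia among the Gpnmb/Fabp5 macrophages was not tested.

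Other marker lists differed widely in level. The 6 markers of inflammatory macrophages, among them genes the rule limits, summed to 256 CPM in control and 8553 CPM in anti-CD9, with Saa3 the most abundant in both, and to 15.4 and 506 CPM in T cells. The 8 T cell markers summed to 17.1 and 6.18 CPM, with Cd3d, Cd3e and Cd3g at 0 by the rule, and the 6 neuronal markers to 15.9 and 0.883 CPM. The 8 markers of border macrophages summed to 12.2 CPM in control and 110 CPM in anti-CD9, led by Pf4, with Cd163, Lyve1, Cbr2 and Ccl24 at 0 in both libraries. The 9 monocyte markers summed to 1166 and 1994 CPM, led by F13a1 in both. The 7 neutrophil markers summed to 229 and 436 CPM, led by Csf3r, while Ly6g was at 0 in both. Predicted doublets made up 2 cells (1.45%) in control and 29 (14.8%) in anti-CD9, against 8.77% and 10.6% of all kept cells, so their share within the macrophages was higher in the anti-CD9 library. The libraries shared 54 barcodes, of which 1 was a Gpnmb/Fabp5 macrophage (anti-CD9).

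As a share of all kept CD45+ cells, Gpnmb/Fabp5 macrophages were 138 of 11690 cells in control (1.18%, exact binomial interval 0.993 to 1.39%) and 196 of 14455 in anti-CD9 (1.36%, 1.17 to 1.56%). The difference of 0.18 percentage points had an interval of -0.10 to 0.45 (Newcombe), which includes 0. The macrophages from which they were drawn differed much more. C1q macrophages, the cells that met all the conditions other than the one on Gpnmb and Fabp5, numbered 283 (2.42%) in control and 1133 (7.84%) in anti-CD9. Within them, Gpnmb/Fabp5 macrophages were 48.8% (42.8 to 54.8%) in control and 17.3% (15.1 to 19.6%) in anti-CD9, a difference of -31.5 points (-37.6 to -25.2). C1q macrophages below the limit numbered 145 and 937, and those above it 138 and 196. Per 100 T cells there were 2.81 and 6.91 Gpnmb/Fabp5 macrophages, but T cells themselves numbered 4906 and 2837. After each C1q macrophage was thinned to 3000 UMIs, which left out 69 and 484 shallower cells, 4 or more Gpnmb and Fabp5 UMIs were found in 146 of 214 cells (68.2%, 61.5 to 74.4%) and 203 of 649 cells (31.3%, 27.7 to 35.0%). Where cells with a UMI of Tmem119, Sparc or Fcrls were left out of both counts, Gpnmb/Fabp5 macrophages were 60 of 79 C1q macrophages (75.9%) in control and 105 of 620 (16.9%) in anti-CD9, a difference of -59.0 points (-67.5 to -48.1). These counts are of unthinned cells, and some cells may have been left out for a UMI of free RNA, which was not tested.

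**Figure D1:**
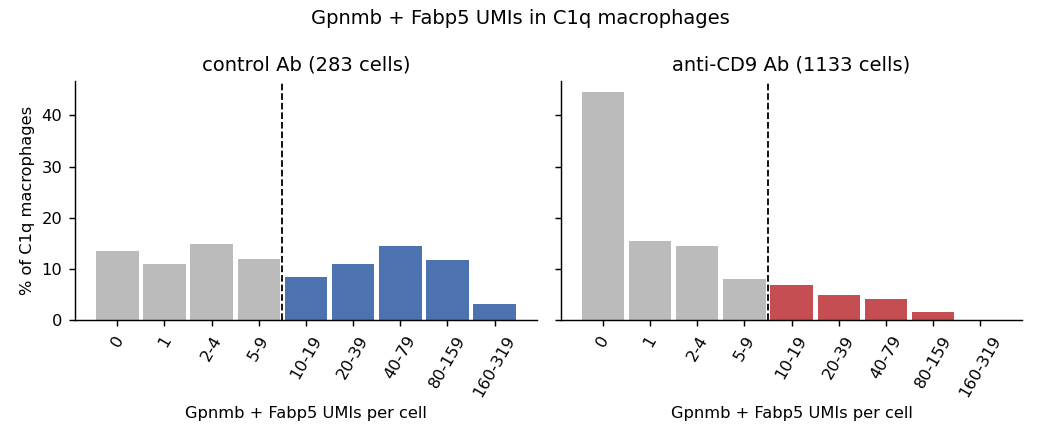
Share of C1q macrophages (y axis, percent) by the number of Gpnmb and Fabp5 UMIs per cell (x axis, binned), control on the left and anti-CD9 on the right. Colored bars right of the dashed line are the Gpnmb/Fabp5 macrophages. Cells with no UMI of either gene were 13.4% in control and 44.5% in anti-CD9, and no gap separates the cells on both sides of the limit.

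The limit of 10 UMIs fell within a continuous distribution. The sum of Gpnmb and Fabp5 in the selected cells ran from 10 to 242 UMIs in control (median 50.5) and from 10 to 179 in anti-CD9 (median 24), or a median of 0.809% and 0.501% of a cell's UMIs. Cells just below the limit (7 to 9 UMIs, 19 and 34 cells) and just above it (10 to 12 UMIs, 13 and 30 cells) are given side by side, with no test. Spp1 was at 76810 CPM below and 116429 CPM above the limit in control, and at 8339 and 16107 CPM in anti-CD9. It did not keep rising with the sum: in cells with 40 or more UMIs it was at 89661 CPM in control and 10165 CPM in anti-CD9. Fabp4, the adipocyte and macrophage fatty acid binding protein, was at 18.37 and 22.0 CPM just above the limit and at 208 and 176 CPM in the cells with 40 or more UMIs. Of the 2 genes that set the limit, Gpnmb was at 0 in 1 and 16 of the selected cells, and Fabp5 at 0 in 2 and 2.

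All 6 genes that mark these cells were lower in the anti-CD9 library, to unequal degrees, while 60.9% of all genes tested were higher. The rule read Gpnmb and Fabp5, and Spp1, Cd63 and Syngr1 followed their sum across C1q macrophages, so this count is a description. Gpnmb stood at 3607 CPM in control and 1564 CPM in anti-CD9, a log2 ratio of anti-CD9 to control of -1.21 (Poisson interval -1.29 to -1.12). Fabp5 stood at 7136 and 4738 CPM (-0.59, -0.64 to -0.54). Both were selected on, so that these ratios are descriptions of cells past a common limit. Spp1, a secreted matrix protein that binds integrins and CD44, differed most, with 85755 and 11367 CPM (-2.92, -2.94 to -2.89). It took 8.58% of all UMIs of these cells in control and was their most abundant mRNA, against 1.14% and the fifth place in anti-CD9, where Fth1 came first (4.56%). Cd63, a tetraspanin of late endosomes, was at 3805 and 1718 CPM (-1.15), and Syngr1, a synaptogyrin, at 1210 and 554 CPM (-1.13). Fabp4 was at 148 and 90.1 CPM (-0.71, -1.09 to -0.33). With a limit of 20 Gpnmb and Fabp5 UMIs per cell, the ratios were -2.87 for Spp1, -0.96 for Gpnmb and -0.96 for Cd63. Syngr1 was then at -0.92, Fabp4 at -0.49 and Fabp5 at -0.38. The share of cells with a Fabp4 UMI after thinning to 3000 UMIs was 15.3% and 14.7%, compared with 0.444% and 0.432% of T cells treated alike (450 and 926 cells).

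Cd9, the target of the antibody, stood at 4783 CPM in control and 1211 CPM in anti-CD9 (log2 ratio -1.98, -2.07 to -1.89). In single cells its median was 47.8 UMIs per 10000 in control and 6.62 in anti-CD9. Thinned to 3000 UMIs, 98.5% and 77.4% of cells had a Cd9 UMI, against 25.1% and 15.0% of T cells. The cells of both libraries overlapped: 11 cells in anti-CD9 were at or above the control median. Of the tetraspanin list, Cd9 and Cd63 included, 7 of 10 genes tested (at least 50 UMIs over both libraries) were lower in anti-CD9, while 60.9% of all genes tested were higher, with Cd81 at 428 and 241 CPM (-0.83). The exceptions were Tspan3 (19.5 and 54.8 CPM, 1.49), Tspan14 (48.8 and 74.2 CPM, 0.60) and Cd82 (20.8 and 32.7 CPM, 0.66, -0.17 to 1.48). CD9 protein on these cells was not measured here.

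**Figure D2:**
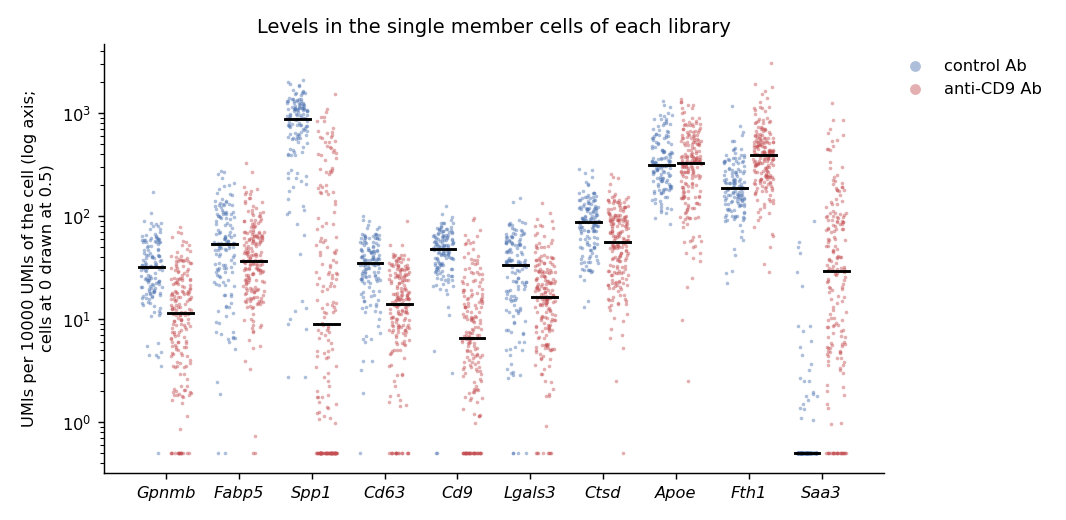
Level of 10 genes (y axis, UMIs per 10000 UMIs of the cell, log axis, cells at 0 drawn at 0.5) in each Gpnmb/Fabp5 macrophage, 138 in control (blue) and 196 in anti-CD9 (red). Black lines are medians over cells: Spp1 went from 879 to 9.0, Cd9 from 47.8 to 6.62 and Saa3 from 0 to 29.4, while Apoe stood at 317 and 330.

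The ranges of Spp1 overlapped between libraries, with few anti-CD9 cells in the upper range of control. In control Spp1 ran from 2.73 to 2082 UMIs per 10000 (median 879) and was present in all 138 cells. In anti-CD9 it ran from 0 to 1523 (median 9.0), with a UMI in 137 of 196 cells, and 5 cells reached the control median and 18 the control lower quartile. Thinned T cells had a Spp1 UMI in 68.9% and 19.9% of cells, at 965 and 139 CPM, so that a single Spp1 UMI is no sign of expression in either library. When the cells of each library were ordered by their Spp1 level and split into 4 groups of near equal size, Cd9 followed the same order. In anti-CD9, Cd9 was at 453, 633, 888 and 3085 CPM from the lowest to the highest Spp1 group (49 cells each), and Cd63 at 1174, 1364, 1849 and 2564 CPM. In control, Cd9 was at 3373, 4574, 4929 and 6059 CPM (34 or 35 cells each). The highest anti-CD9 group therefore had a Cd9 level near that of the lowest control group, and its Spp1 level of 46139 CPM lay between those of the first (20823 CPM) and second (69074 CPM) control groups. Apoe showed no such order (42191, 32053, 42092 and 33658 CPM in anti-CD9).

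Saa3, an acute-phase serum amyloid that myeloid cells make, ran opposite to Spp1. From the lowest to the highest Spp1 group it was at 735, 193, 68.1 and 9.57 CPM in control. In anti-CD9 the groups had 11336, 15268, 3872 and 2396 CPM. Across single cells thinned to 3000 UMIs, Spearman's rho between Spp1 and Saa3 was -0.26 in control (131 cells) and -0.36 in anti-CD9 (177 cells), and between Spp1 and Cd9 0.47 and 0.63. These are descriptions of cells that share a library and its free RNA.

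**Figure D3:**
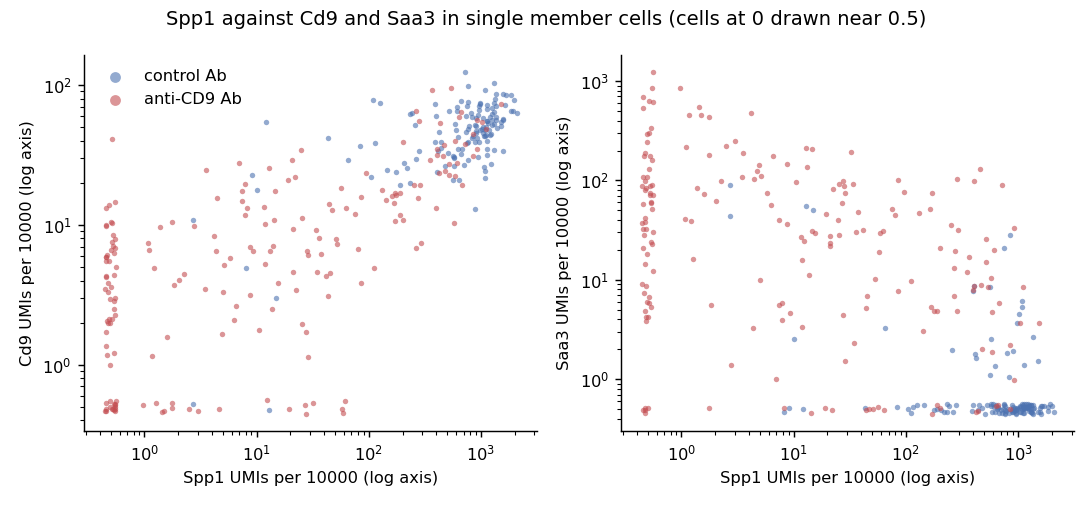
Spp1 (x axes) against Cd9 (left, y axis) and Saa3 (right, y axis) in single Gpnmb/Fabp5 macrophages, in UMIs per 10000 UMIs of the cell (log axes, cells at 0 drawn near 0.5). Cells in control (blue) sit mostly at high Spp1 and Cd9 and low Saa3, and cells in anti-CD9 (red) are spread over the whole range of Spp1.

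Across all 5119 genes tested, 312 (6.09%) had at least 2-fold more CPM in anti-CD9 and 116 (2.27%) at least 2-fold less. The ratios were not centred on 0: 60.9% of genes were higher in anti-CD9, with a median log2 ratio of 0.14, so that a gene at 0 lay below the typical gene. Centred on that median, 210 genes were at least 2-fold higher and 166 lower. Among genes with 200 UMIs or more, the 10 lowest ratios belonged to Spp1 (-2.92), Lpl (-2.71), Csf1 (-2.22), Lag3 (-2.14), Cd9 (-1.98), Igf1 (-1.92), Cd24a (-1.90), Tmem38b (-1.67), Cst7 (-1.67) and Timp2 (-1.43). Csf1, the macrophage growth factor, went from 317 to 68.0 CPM, with a ratio of -3.09 in cells without a UMI of Tmem119, Sparc or Fcrls. Igf1, insulin-like growth factor, went from 217 to 57.4 CPM. The 10 highest belonged to Cxcl2 (6.95), Saa3 (5.19), Ccl5 (2.98), Atrnl1 (2.95), Stab1 (2.63), Xdh (2.28), Ly6i (2.23), Gm56663 (2.13), Airn (2.09) and Aoah (2.08). Stab1, a scavenger receptor of tissue macrophages, went from 42.7 to 264 CPM, with a UMI in 9.92% and 50.8% of thinned cells against 2.00% and 2.70% of T cells. Aoah, an enzyme that inactivates bacterial lipopolysaccharide, went from 79.3 to 336 CPM. Airn, a long noncoding RNA, had a UMI in 8.397% and 29.4% of thinned cells and in 32.9% and 35.0% of T cells. T cells thus held it more often than the macrophages, most of all in control. What part of it was free RNA was not tested.

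**Figure D4:**
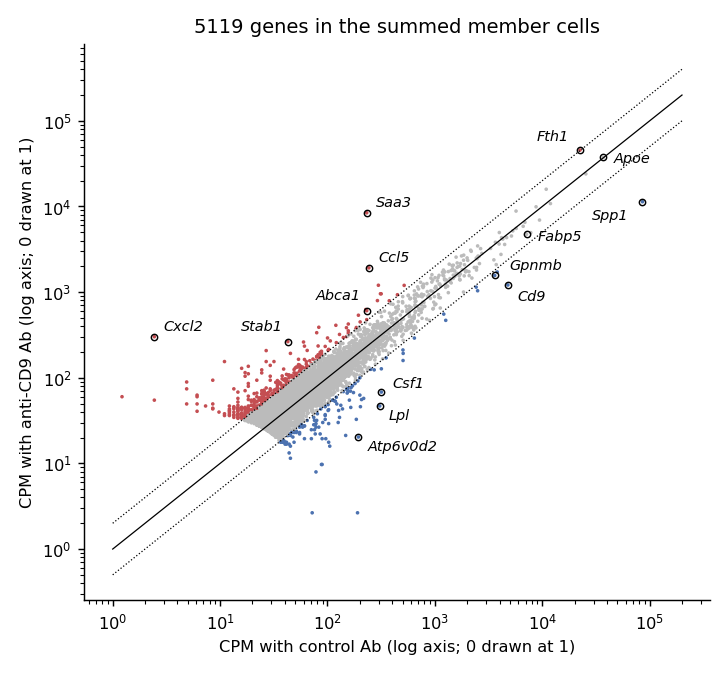
CPM in control (x axis, log) against CPM in anti-CD9 (y axis, log) for the 5119 genes with at least 50 UMIs in the summed Gpnmb/Fabp5 macrophages. Red points were at least 2-fold higher in anti-CD9 (312 genes), blue points at least 2-fold lower (116 genes), dotted lines mark 2-fold and circles named genes. Spp1 lies farthest to the right, below the diagonal, and Saa3 lies above it, at 232 CPM in control and 8437 CPM in anti-CD9.

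Of 12 genes on the list of receptors and enzymes of lipid uptake 4 were tested, too few to describe the list. Higher in anti-CD9 were 2 of them, while 60.9% of all genes tested were higher. Lpl, the lipoprotein lipase that frees fatty acids from lipoproteins, was at 306 CPM in control and 46.8 CPM in anti-CD9 (-2.71, -3.14 to -2.28). Trem2, a receptor for lipids and lipoproteins, was at 1848 and 1002 CPM (-0.88). Msr1, a scavenger receptor for modified lipoproteins, was at 31.7 and 71.6 CPM (1.17, 0.54 to 1.81, from 26 and 81 UMIs). Lrp1, a receptor for Apoe-bearing particles, was at 309 and 314 CPM (0.02, -0.21 to 0.25), below 0 once centred on the median gene.

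Fatty acid binding and storage genes were also divided, with 4 of 8 tested genes (without Fabp5) higher and a median log2 ratio of -0.11. Fabp3, the heart-type binding protein, was at 105 and 15.9 CPM (-2.72, -3.46 to -1.99, from 86 and 18 UMIs). Its ratio was -4.49 (-6.18 to -2.81), from 44 and 3 UMIs, in cells without a UMI of Tmem119, Sparc or Fcrls. Plin3, a droplet coat protein, was at 95.2 and 45.9 CPM (-1.05). In the other direction, Acsl1, which activates fatty acids with coenzyme A, was at 79.3 and 151 CPM (0.93, 0.52 to 1.34), Soat1, which esterifies cholesterol, at 240 and 301 CPM (0.33), and Plin2, the most abundant of the list, at 265 and 315 CPM (0.25, 0.01 to 0.50). The sign of this median was not stable. It was 0.29 with a minimum of 200 UMIs per gene (4 genes) and 0.30 with a limit of 20 Gpnmb and Fabp5 UMIs per cell. Of 8 tested genes of fatty acid oxidation, 6 were lower (median -0.38), while 60.9% of all genes tested were higher, with Echs1 at 222 and 136 CPM (-0.71), and Cpt1a, the gate of mitochondrial fatty acid import, at 26.9 and 34.5 CPM (0.36, -0.39 to 1.11). No gene of sterol synthesis reached 50 UMIs.

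Of the genes of sterol efflux and the targets of the nuclear receptors LXR and PPAR, 9 of 11 tested were higher (median 0.30). Of all genes tested, 60.9% were higher (median 0.14). Abca1, the pump that loads cholesterol onto apolipoproteins, was at 232 CPM in control and 607 CPM in anti-CD9 (1.39, 1.16 to 1.62). Apoc2, the cofactor of lipoprotein lipase, was at 518 and 1199 CPM (1.21, 1.05 to 1.37), and Nr1h3, which encodes LXR alpha, at 50.05 and 88.3 CPM (0.82, 0.30 to 1.34). Abcg1 was at 150 and 194 CPM (0.37). Apoe, by far the most abundant gene of the list, stood at 37007 and 37436 CPM (0.02, -0.005 to 0.04, below 0 once centred on the median gene), an interval that includes 0. Apoc1 (-0.40, -1.02 to 0.23) and Scd2 (-0.39, -1.04 to 0.26) were the lower ones.

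The 19 genes of hydrolases and lipid transfer proteins of the lysosome, where ingested lipid is digested, summed to 44864 CPM in control and 33718 CPM in anti-CD9. Of 18 tested 5 were higher and 13 lower (median -0.40), while 60.9% of all genes tested were higher (median 0.14). The protease Ctsd was the most abundant, at 9426 and 6939 CPM (-0.44, -0.49 to -0.40). Ctsl, a cysteine protease, was lowest by ratio, at 2500 and 1037 CPM (-1.27), or 1380 and 890 CPM (-0.63) in cells without a UMI of Tmem119, Sparc or Fcrls. Ctsb was at 7810 and 4951 CPM (-0.66). Lipa, the acid lipase that frees cholesterol from lipoproteins, was at 304 and 223 CPM (-0.44). Psap, the precursor of the saposins, was at 5166 and 4520 CPM (-0.19), and Npc1, the sterol transporter of the lysosomal membrane, at 109 and 150 CPM (0.47, 0.10 to 0.84). On the list of lysosomal membrane proteins and MiT factors (median -0.12, 5 of 14 higher), Atp6v0d2, a proton pump subunit of macrophages and osteoclasts, was at 194 and 20.3 CPM (-3.26, -3.89 to -2.63). Its ratio rested on few UMIs in anti-CD9 (23) and ran from -5.76 (95 and 2 UMIs, mitochondrial limit of 2%) to -2.64 (cells thinned to 3000 UMIs) over other choices of cells. After thinning it had a UMI in 31.3% and 3.95% of cells, against 0 of 450 and 0.540% of 926 T cells. Mitf, a factor that drives Gpnmb and lysosomal genes, was at 557 and 391 CPM (-0.51), and its relatives Tfeb (34.2 and 38.0 CPM) and Tfe3 (31.7 and 47.7 CPM) were near the depth limit.

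The motif CACGTG, which is its own reverse complement and is the core bound by MiT factors such as Tfeb and Mitf as well as by other basic helix-loop-helix factors, was searched for in promoters from RefSeq (build GRCm38.p6, 250 bases before to 50 after each gene start). It occurred in 7.15% of 32851 promoters and, by gene, in 8.09% of 27025 genes. Of the hydrolase list 14 of 19 genes were matched and 5 of these held it (35.7%), as did 3 of 15 matched genes of the membrane list, 3 of 12 of the fatty acid list and 0 of 4 of the 6 marker genes. The 250 bases before the gene start are printed for Gpnmb, Ctsd and Lamp1. Gpnmb gave the cells their name and Ctsd was the most abundant hydrolase. Lamp1 followed the sum of Gpnmb and Fabp5 across thinned C1q macrophages (Spearman's rho 0.33 in control and 0.36 in anti-CD9). Psap, Cd63, Spp1, Syngr1, Cd68 and Hexa ranked above Lamp1 by the smaller rho of both libraries. All of these were matched and held no CACGTG, and Ctsb, also above it, was not matched. Lamp1 is therefore not typical of the genes that followed Gpnmb and Fabp5. Capitals mark CACGTG, and each sequence runs 5′ to 3′ on the strand of the gene, Gpnmb at chr6:49036268-49036517 (plus), Ctsd at chr7:142387828-142388077 (minus) and Lamp1 at chr8:13158911-13159160 (plus).
Gpnmb: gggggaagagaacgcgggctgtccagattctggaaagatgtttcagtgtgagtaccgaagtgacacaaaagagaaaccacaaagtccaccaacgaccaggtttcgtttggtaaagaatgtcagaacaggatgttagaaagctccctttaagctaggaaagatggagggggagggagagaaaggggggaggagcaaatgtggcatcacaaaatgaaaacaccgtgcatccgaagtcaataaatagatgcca
Ctsd: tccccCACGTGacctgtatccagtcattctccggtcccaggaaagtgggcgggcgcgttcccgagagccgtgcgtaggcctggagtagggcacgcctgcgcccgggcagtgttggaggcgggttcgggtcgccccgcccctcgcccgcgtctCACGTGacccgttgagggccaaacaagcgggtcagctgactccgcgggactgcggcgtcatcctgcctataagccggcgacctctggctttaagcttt
Lamp1: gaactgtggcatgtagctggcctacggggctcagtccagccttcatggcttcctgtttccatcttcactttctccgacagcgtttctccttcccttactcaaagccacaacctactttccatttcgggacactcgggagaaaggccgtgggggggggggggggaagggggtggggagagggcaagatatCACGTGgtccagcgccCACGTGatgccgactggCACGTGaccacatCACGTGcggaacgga
Gpnmb had no match in this window, Ctsd had 2, starting 245 and 98 bases before the gene start, and Lamp1 had 4, at 61, 45, 28 and 15 bases. A match is a run of letters and not a bound site, and these data hold no measurement of factor binding.

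**Figure D5:**
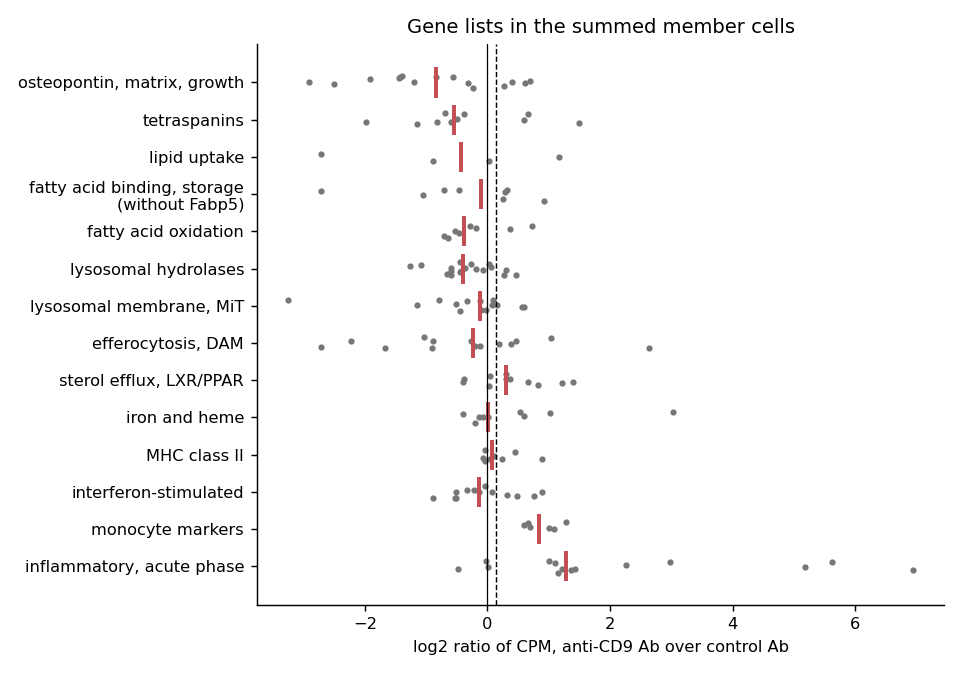
Log2 ratio of CPM (x axis, anti-CD9 to control) for the tested genes (gray points) of 14 gene lists (rows) in the summed Gpnmb/Fabp5 macrophages. Red bars are list medians and the dashed line is the median of all 5119 genes (0.14). The list of osteopontin, matrix and growth genes, which holds Gpnmb, a gene the rule read, lies lowest (-0.83). That of inflammatory and acute-phase genes, some of which passed the UMI limit only through anti-CD9, lies highest (1.28).

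Osteopontin, matrix and growth genes had the lowest median of the 14 plotted lists (-0.83). Of 15 tested genes 11 were lower and 7 at least 2-fold lower, against 2.27% of all genes tested. These 7 include Spp1 and also Gpnmb, on which the cells were selected. The counts and the median of this list are therefore in part set by the rule and are a description. Plau, the urokinase protease, was at 186 and 32.7 CPM (-2.51), Itgax (CD11c) at 76.9 and 28.3 CPM (-1.44) and Timp2, an inhibitor of matrix proteases, at 1262 and 468 CPM (-1.43). Lgals3, the galectin of phagocytic macrophages, was at 3728 and 2094 CPM (-0.83). Mmp14 (0.70), Fn1 (0.61), Cd44 (0.40), a receptor of osteopontin, and Itgb5 (0.27) were higher in anti-CD9. Of genes of efferocytosis (the removal of dying cells) and of disease-associated microglia (DAM), 9 of 14 were lower (median -0.24), while 60.9% of all genes tested were higher, among them Cst7 (505 and 159 CPM, -1.67) and Axl (214 and 114 CPM, -0.91), while the efferocytosis receptor Mertk was at 305 and 398 CPM (0.38, 0.16 to 0.61) and Cd300lf at 70.8 and 146 CPM (1.04).

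Among the 14 plotted lists, inflammatory and acute-phase genes had the highest median (1.28). Of 14 tested genes 12 were higher in anti-CD9 and 11 of them at least 2-fold, against 60.9% and 6.09% of all genes tested. The other 2 were the chemokines Ccl2 (104 and 74.2 CPM, -0.48) and Ccl3 (133 and 131 CPM, -0.03). The UMI limit was set on the sum of both libraries, so some genes, such as Cxcl2 (2 and 341 UMIs), passed it only through anti-CD9. The counts and the median of this list are therefore in part set by that limit and are a description. Saa3 was at 232 CPM in control (190 UMIs) and 8437 CPM in anti-CD9 (9551 UMIs), a log2 ratio of 5.19 (4.98 to 5.39), or 4.48 where cells were thinned to 3000 UMIs before selection. The free-RNA background of this gene was not small. T cells, which should lack it, had 11.5 and 449 CPM, with a Saa3 UMI in 2.67% and 41.3% of thinned T cells, against 14.5% and 83.1% of thinned Gpnmb/Fabp5 macrophages. Its level in the macrophages of the anti-CD9 library was above that in T cells, and below the 26806 CPM of Nos2/Slc7a2 macrophages in the same library. Il1b was at 29.3 and 140 CPM (2.25, 1.63 to 2.87), with a UMI in 13.6% of thinned cells in anti-CD9 against 14.5% of T cells, no more than background. Tnf, which T cells also make, was at 24.4 and 52.1 CPM (1.09), and Nfkbia, the feedback inhibitor of NF-kB, at 150 and 384 CPM (1.36, 1.07 to 1.64), with a UMI in 53.1% of thinned cells and 52.5% of T cells in anti-CD9. A few cells carried some of these values. Cxcl2 had 2 UMIs in control and 341 in anti-CD9 (6.95, 4.94 to 8.95). One cell held 54.8% of the 341, without predicted doublets 0 and 31 UMIs were left, and 9.04% of thinned cells had a Cxcl2 UMI against 15.2% of T cells, which is no more than background. One cell held 76.5% of the Ccl8 UMIs and another 44.1% of those of Ccl4. Ccl5, which T cells also express, was at 243 and 1920 CPM in the macrophages and 927 and 1156 CPM in T cells. Its ratio of 2.98 was 2.33 in cells without a UMI of Tmem119, Sparc or Fcrls and 2.29 where 3 UMIs each of Gpnmb and Fabp5 were required.

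All 6 tested monocyte markers were higher in anti-CD9 (median 0.85), against 60.9% of all genes tested, including F13a1 (564 and 908 CPM, 0.69, 0.53 to 0.85), Ly6c2 (183 and 367 CPM, 1.01) and Plac8 (54.9 and 133 CPM, 1.28, with 19.2% of its UMIs in 1 cell). How far monocyte content contributed to the other lists was not tested. Interferon-stimulated genes had 5 of 13 higher (median -0.13, or -0.27 to 0.32 over the alternatives), with Irf7 lowest (160 and 86.6 CPM, -0.89) and Ifitm3, which restricts viral entry, at 457 and 772 CPM (0.76). Class II genes for antigen presentation had a median of 0.08 (below 0 once centred), with Ciita (0.90) and H2-Ab1 (0.44) highest and Ctss (-0.08) lowest. H2-Aa was at 2738 and 2829 CPM (0.05, -0.03 to 0.12) and Cd74 at 5315 and 5191 CPM (-0.03). In iron handling (median 0.00, below 0 once centred), Fth1, the ferritin heavy chain, was at 22474 and 45571 CPM (1.02, 1.00 to 1.04), whereas the light chain Ftl1 was at 11916 and 10808 CPM (-0.14, -0.18 to -0.10). Hmox1, which degrades heme, was at 222 and 321 CPM (0.53). Lcn2, which binds bacterial iron carriers, was at 15.9 and 129 CPM (3.02), with a UMI in 12.99% of thinned cells and 11.7% of thinned T cells in anti-CD9. The 2 tested cycling genes were Stmn1 (48.8 and 38.0 CPM) and Hmgb2 (86.7 and 121 CPM), and of the 15 genes induced by tissue dissociation, which mark stress during preparation, 8 of 11 tested were higher (median 0.40), against 60.9% of all genes tested (median 0.14).

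The same genes were set beside 3 other gates of the libraries to see where the differences lay. In C1q macrophages with under 10 Gpnmb and Fabp5 UMIs (145 and 937 cells), Spp1 was at 45722 and 3061 CPM (-3.90, -3.93 to -3.87) and Cd9 at 4490 and 823 CPM (-2.45, -2.53 to -2.37), ratios lower than in the Gpnmb/Fabp5 macrophages. The make-up of this gate also differed between libraries. Its microglial markers summed to 3088 and 1136 CPM and its monocyte markers to 1051 and 3057 CPM. A UMI of Tmem119, Sparc or Fcrls was present in 78.3% and 41.9% of its thinned cells. How far this make-up entered its ratios was not tested. In Cst7/Lpl microglia (226 and 35 cells), Spp1 was at 27004 and 28037 CPM (0.05, 0.01 to 0.10) and Cd9 at 5598 and 3730 CPM (-0.59, -0.71 to -0.46). Ratios of Saa3 were much alike in the Gpnmb/Fabp5 macrophages (5.19), the C1q macrophages below the limit (5.14), Cst7/Lpl microglia (5.57, 4.77 to 6.37) and T cells (5.29), at very different levels. In T cells, Spp1 (-2.80), Fth1 (0.93) and Ctsd (-0.47) also had ratios close to those of the macrophages (-2.92, 1.02 and -0.44), at lower levels (965 and 139 CPM for Spp1, 2858 and 5444 CPM for Fth1, 403 and 292 CPM for Ctsd). Cd9 in T cells was at 141 and 105 CPM (-0.43). Other genes had ratios of opposite sign in T cells, such as Gpnmb (0.27), Fabp5 (0.72), Lgals3 (1.13) and Csf1 (1.10). In the macrophages these 4 were at -1.21, -0.59, -0.83 and -2.22. What part free RNA had in the ratios of the macrophages was not tested. Abca1 was at 300 and 551 CPM in C1q macrophages below the limit (0.88) and at 400 and 401 CPM in Cst7/Lpl microglia (0.00, -0.39 to 0.39).

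Within each library the selected cells were also set beside their neighbours, as a description, since the gates read the same counts. Compared with C1q macrophages below the limit, 88 of 1441 genes (6.11%) were at least 2-fold higher in control and 26 (1.8%) in anti-CD9, 17 of them (1.18%) in both, and 8 (0.555%) were at least 2-fold lower in both (ratios of CPM with 20 added), and the 17 include Gpnmb and Fabp5 themselves, on which the cells were chosen. Lgals3 was at 3728 against 640 CPM in control and 2094 against 598 CPM in anti-CD9. Psap was at 5166 against 1776 CPM and 4520 against 1787 CPM. Ftl1, Apoc2, Cd68, Lgals1, Nceh1 (a cholesterol ester hydrolase), Smpdl3a (a lysosomal phosphodiesterase) and Fabp4 were among the others that were higher. Lower in both were Igkc, an immunoglobulin chain made by plasma cells (262 against 14768 CPM and 178 against 4655 CPM), S100a9, Ccl4, Mef2c, Plxdc2 and Cd81. The comparison cells also had fewer UMIs (medians 3422 and 3071) and 1509 and 1056 CPM of plasma cell markers against 79.3 and 49.5 CPM in the selected cells. The part of free RNA in these ratios was not tested.

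Against the 3 other gates pooled (Nos2/Slc7a2 macrophages, Pf4/Mrc1 macrophages and Cst7/Lpl microglia), the cells compared differed between libraries. In control they were 226 Cst7/Lpl microglia and 2 Nos2/Slc7a2 macrophages, and in anti-CD9 35 Cst7/Lpl microglia, 705 Nos2/Slc7a2 macrophages and 8 Pf4/Mrc1 macrophages. Genes were ranked by the smaller of both log2 ratios, leaving out Gpnmb (5.10 and 2.02) and Fabp5 (4.40 and 1.45), which the rule read. Of the others, Spp1 (1.68 and 2.47), Apoe (1.48 and 1.22), the cytokine Tnfsf12 (2.15 and 1.22), Cd63 (1.09 and 1.32) and Cd68 (1.07 and 1.02) came first. Uap1l1, Tnfsf13, Psap, Ctsb, Lipa, Smpdl3a, Lgals3, Aldh2, Cd300a and Hebp1 followed. Against Cst7/Lpl microglia alone the order did not hold in anti-CD9, where Spp1 was at 11367 CPM in the selected cells and 28037 CPM in the microglia, and Cd63 at 1718 and 1799 CPM. Nos2/Slc7a2 macrophages of that library had 1165 CPM of Spp1 and 637 CPM of Cd63. Those lower against both were led by Cd14 (107 against 426 CPM and 170 against 792 CPM), a coreceptor for lipopolysaccharide, and the chemokine Ccl4 (-2.97 and -1.34), then Marchf1, Igkc, Ccl3, Fmnl2, Itgam, Lpp, Slpi and Cers6. Cd9 was below these gates in control (4783 against 5533 CPM, -0.21) and above them in anti-CD9 (1211 against 412 CPM, 1.51), where the comparison was mostly with Nos2/Slc7a2 macrophages.

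Across the C1q macrophages themselves, thinned to 3000 UMIs (214 cells in control and 649 in anti-CD9), 10 genes followed the sum of Gpnmb and Fabp5 most closely, a description of cells that share depth and free RNA. By the smaller Spearman's rho of both libraries the order was Ctsb (0.60 and 0.59), Psap (0.71 and 0.58), Ftl1 (0.80 and 0.54), Lgals3 (0.74 and 0.43), Cd63 (0.41 and 0.45), Spp1 (0.46 and 0.38), Syngr1, Cd68, Hexa and Lamp1 (0.33 and 0.36). Within the selected cells the rho of Gpnmb and Fabp5 was 0.54 in control (131 cells) and 0.28 in anti-CD9 (177 cells). The rule set a limit on the sum of these genes, so that this rho depends on the cut and is a description. Gpnmb was related to Ctsd (0.36 and 0.48). Gpnmb and the class II gene H2-Aa ran in opposite directions (-0.51 and -0.19). Cd9 followed Gpnmb in anti-CD9 (0.34) but hardly in control (0.03), a difference that was not tested.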

How the data were processed

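Single-cell RNA libraries of thalamic CD45+ cells, 1 per antibody, were analysed. The authors deposited filtered matrices of raw UMI counts per gene and cell, not normalized, and no cell annotation. The file headers and the submitters' processing notes name Cell Ranger 8.0.0, and the notes name build GRCm39. The methods name an earlier Cell Ranger version and an earlier mouse build. Cells with 200 to 7500 genes and at most 5% mitochondrial UMIs were kept. The cells and gene lists were chosen with earlier results of these data known. Some genes that entered the selection rule, a gate or the list counts are not reported here by name.

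Counts of the selected cells were summed per library and scaled to CPM over all genes. Ratios were given for genes whose UMIs in both libraries came to 50 or more, with Poisson intervals. A gene was counted as different at 2-fold, and no p-value was computed. Shares had exact binomial intervals and differences of shares Newcombe intervals. T cells (at least 2 Cd3d, Cd3e and Cd3g UMIs and at most 2 C1q UMIs) served as background for free RNA. Shares of cells with a UMI were taken after thinning to 3000 UMIs per cell, which left out 7 and 19 selected cells. Doublets were scored against simulated doublets with 30 neighbours at an assumed rate of 0.8% per 1000 cells, and marked but not removed.

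Genes named were the rule and marker genes and Cd9, up to 3 highest and 3 lowest genes and the most abundant gene of each list, the 10 highest and 10 lowest ratios among genes with 200 UMIs, the 15 highest and 10 lowest against other gates (pseudocount 20 CPM), and the 10 genes most correlated with Gpnmb and Fabp5. Gpnmb and Fabp5 were left out of the ranking against other gates. Other genes named, such as Mitf, Mertk and Axl, were chosen after their values were seen. On simulated counts for this comparison (5020 genes), drawn with Poisson error only, 92.5% of genes changed by 1.5 on the log2 scale passed 2-fold. So did 100% of those changed by 2 and 0.288% of unchanged genes. The simulation held no variation between cells, mice or libraries, so these shares give no error rate for the genes counted in the data. Scripts ran in Python 3.11.15 with scikit-learn 1.9.0 (neighbours), SciPy 1.17.1 (intervals), Matplotlib 3.10.9 (plots), and pandas 2.3.3 over NumPy 2.4.6. Alternatives covered the cell limits, depth, doublets, scaling and the gene minimum.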

Additional observations from a re-analysis of the deposited data

How the results depend on the processing

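With 1 library per antibody, leaving out a library was not possible. No paired analysis was possible because each antibody had 1 library and the result came from no test. Over 13 alternative settings, 3 of them chosen after seeing the data, 76 of 92 values moved by less than their counting interval or, for counts of genes, by less than 1.5 times, and 16 moved more. No value whose interval as reported excluded 0 changed sign. The difference in the share of kept cells and the medians of the fatty acid and interferon lists, whose intervals as reported include 0, did change sign under some settings. The cause was not tested for any of these.

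The difference in the share of kept cells was -0.07 points in cells thinned to 3000 UMIs, -0.15 points with a limit of 20 Gpnmb and Fabp5 UMIs, 0.52 points (0.20 to 0.84) with a limit of 5, 0.21 points (0.02 to 0.40) without cells with a UMI of Tmem119, Sparc or Fcrls (added) and -0.14 points where 3 UMIs of each gene were required (added). The difference within C1q macrophages was -59.0 points where cells with a UMI of Tmem119, Sparc or Fcrls were left out of both counts (added), and 196 genes were then at least 2-fold higher and 63 lower. With the limit of 20 UMIs, 201 genes were higher. With a minimum of 200 UMIs per gene, which tests fewer genes, 65 were higher and 33 lower, and with 1 UMI in each library, which tests more, 1454 and 1005. The Cd9 log2 ratio was -1.80 at a mitochondrial limit of 2%, -1.83 with the limit of 20 UMIs, -1.86 with 3 UMIs of each gene and -2.12 centred on the median gene, where the hydrolase list stood at -0.54. The fatty acid list ran from -0.33 to 0.30, with 0.29 (0.04 to 0.54, 4 genes) at a minimum of 200 UMIs, and the interferon list from -0.27 to 0.32. Over choices of cells, the Spp1 ratio ran from -3.11 to -2.52 and that of Saa3 from 4.48 to 5.26. That of Cxcl2 ran from 4.19 to 7.12 where control had a UMI, and had no value in thinned cells, without predicted doublets or without the cells marked by Tmem119, Sparc or Fcrls, where control was at 0. Without these marked cells the ratio was -4.49 for Fabp3, -3.09 for Csf1, -4.36 for Atp6v0d2 and 2.33 for Ccl5. Depth limits genes under 50 UMIs, which had no ratio.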
